A study of Schizosaccharomyces pombe with 8 samples.

Results

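The genes urg1, urg2 and urg3 of fission yeast (Schizosaccharomyces pombe) were followed through nascent transcription and input RNA, with and without trichostatin A (TSA). They were taken by name, as the 3 gene entries named urg1, urg2 and urg3 and their coding parts, out of 5129 protein-coding genes and 9111 features in all. The set was chosen by a measured value, the lower nascent signal of urg1 in the TSA libraries used here, so the nascent values below are a description and carry no test. The names of urg2 and urg3 brought them in beside urg1.

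The name urg stands for uracil-regulated gene. In S. pombe, transcription of urg1 rises quickly when uracil is added to the medium, and for that reason its promoter is used as a switch for inducible expression. The proteins resemble those of the uracil catabolism (URC) pathway described in the yeast Lachancea kluyveri, in which uracil is broken down as a source of nitrogen. The reference annotation (RefSeq) names the product of urg1 a GTP cyclohydrolase II and that of urg2 a putative uracil phosphoribosyltransferase, an enzyme type that joins uracil to phosphoribose. It gives the product of urg3 no enzyme name.

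The cells carried flag-tagged Rpb3, a subunit of RNA polymerase II, and were otherwise described as wild type. They were either untreated or grown with 20 µg/ml TSA, an inhibitor of class I and II histone deacetylases, for 2.5 h, and both groups carried the tag. NET-seq sequences the RNA that comes down with the polymerase (IP, called nascent RNA here), and the input is the RNA of the same lysate before that step. Each of the 4 groups (untreated IP, TSA IP, untreated input, TSA input) had 2 libraries from biological duplicates, 8 libraries in all. A lysate of tagged S. cerevisiae was mixed in at 1 part to 50 as a spike-in. The cultures were growing exponentially. The methods name YES and EMMG media for the strains of the study. Which of them the NET-seq cultures had, and with it the supply of uracil, is not given in the sources used here.

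The IP libraries held 7218671 to 10436194 reads over features and the inputs 8104143 to 12591213, with a median per protein-coding gene of 245 to 427 reads in the IP and 43 to 64 in the inputs. Values are normalised reads: the authors multiplied the reads of each library by 1 factor, set either by the spike-in (IP only) or by all uniquely mapped reads (all libraries). The spike-in factor raised the first untreated IP library above the second. The median log2 change over all features tested was -0.42 (8052 features) with the spike-in and 0.03 (8062 features) with total reads. Replicates of all groups differed by more than sampling noise, with a chi-square per degree of freedom of 30.6 to 159.7.

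The 3 genes lie together on chromosome I, within 6452 nt. In the positions of the tables, urg2 covers 1830609 to 1831951 on the minus strand (1343 nt), with its coding part from 1831012 to 1831626. On the plus strand, urg3 covers 1832317 to 1833811 (1495 nt, coding part 1832457 to 1833656), and urg1 covers 1835270 to 1837060 (1791 nt, coding part 1835469 to 1836788). Each coding part is 1 exon. Thus urg2 and urg3 point away from each other across 365 nt, and urg1 follows urg3 on the same strand after 1458 nt. No other feature of the tables overlaps any of the 3 genes. RefSeq lists 4 further long non-coding RNAs in this stretch that the tables do not count. SPNCRNA.2832 ends just before urg1 on its strand, and SPNCRNA.2833 lies across urg1 on the opposite strand. SPNCRNA.2830 and SPNCRNA.2831 lie inside urg3 on the opposite strand. The methods call NET-seq strand specific, but whether strand was used to count reads into these tables is not given in the sources used here. The values show that it was used for med6 and itt1, nearby genes on opposite strands. All of itt1 lies inside med6, yet itt1 held more normalised reads in every library but the second TSA IP. In the first untreated IP library it had 298 against 181 on the spike-in scale. Counting without strand would have given med6 at least as many. With strand used throughout, reads of SPNCRNA.2833 do not count for urg1, nor those of the RNAs inside urg3 for urg3. The stretch upstream of urg1 and that of urg3 are shown because these genes lie side by side on 1 strand and differ in the size of their nascent difference. They are the reference bases (RefSeq, ASM294v3) from 250 before to 50 after the RefSeq gene start, urg1 at chrI:1835004-1835303 and urg3 at chrI:1831855-1832154, both on the plus strand. Capitals mark the letters TATAAA, the sequence known as a TATA box.
urg1: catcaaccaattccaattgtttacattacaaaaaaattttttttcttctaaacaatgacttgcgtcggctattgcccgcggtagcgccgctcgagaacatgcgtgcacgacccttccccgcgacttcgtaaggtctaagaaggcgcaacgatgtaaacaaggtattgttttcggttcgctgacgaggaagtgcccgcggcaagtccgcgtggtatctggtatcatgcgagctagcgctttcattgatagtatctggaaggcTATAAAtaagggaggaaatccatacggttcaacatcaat
urg3: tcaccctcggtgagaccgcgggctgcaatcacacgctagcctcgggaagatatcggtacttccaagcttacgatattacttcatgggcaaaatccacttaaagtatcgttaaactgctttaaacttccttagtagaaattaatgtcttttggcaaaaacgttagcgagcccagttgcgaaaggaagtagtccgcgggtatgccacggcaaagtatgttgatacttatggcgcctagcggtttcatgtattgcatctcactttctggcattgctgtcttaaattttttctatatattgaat
In urg1 the 1 match begins 11 nt after the RefSeq start and ends on the first base of the gene as the tables place it, since the 2 annotations differ by 16 nt there. The urg3 window holds no match, and its RefSeq start lies 212 nt upstream of that in the tables. The corresponding window of urg2 (1831550 to 1831849, minus strand) is not printed because it lies inside the urg2 entry of the tables, whose start is 352 nt farther upstream. It holds 2 matches to TATAAA, and the nearer one (1831627 to 1831632) ends directly before the first base of the coding part of the tables. TATAAA, on either strand, occurred in 48.1% of 5112 such windows of protein-coding genes. TGACGT, the core of sites bound by ATF/CREB factors, occurred in 5.91% of the windows, and GATAAG, a site of zinc finger factors, in 11.6%, and neither was found on either strand in the 3 urg windows. The searched letters do not overlap each other in the urg windows. The urg1 window was 46.7% G or C, that of urg3 43.0% and that of urg2 35.3%, beside a median of 33.0% over all windows.

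Nascent RNA on urg1 was several-fold lower in TSA cells than in untreated cells, and less so on its neighbours. On the spike-in scale, urg1 had 887 and 474.8 normalised reads in untreated cells, where TSA cells had 125.9 and 93.8. The groups did not overlap, and the lower untreated library was far above the higher TSA library. On this scale, less nascent RNA per cell over all features and fewer cells in the lysate cannot be told apart. The log2 change was -2.51 (SE 0.30), a 5.71-fold lower level, and among 5014 protein-coding genes it was the lowest. For urg2 the values were 409 and 246.7 in untreated and 163.9 and 169.7 in TSA cells, a log2 change of -0.91 (SE 0.30). Here too the groups did not overlap, and the TSA replicates lay close together. For urg3, the middle gene of the cluster, they were 310 and 187.6 in untreated and 122.0 and 97.8 in TSA cells, a log2 change of -1.10 (SE 0.31). The groups of urg3 again did not overlap, but its log2 change was -0.75 without the first untreated IP library and -0.95 without the second TSA IP library, both under 2-fold. In the fit over all features, 6.31% were called lower on this scale (adjusted p under 0.05 and at least 2-fold, limma) and 2.1% higher, and 2 of the 3 genes, urg1 and urg3, were among the former. Since this contrast chose the set, nothing is read from that count. How often the groups of other features did not overlap was not counted, so nothing is read from the lack of overlap either.

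In every member the first untreated replicate was the higher on the spike-in scale, and the plot of the members by library shows that this gap narrowed when the same reads were scaled to the total. On the total-read scale urg1 had 658.8 and 571.3 normalised reads in untreated and 177.8 and 116.0 in TSA cells, a log2 change of -2.04 (SE 0.26) or 4.12-fold. The gene urg1 was the lowest of 5013 protein-coding genes on this scale as well. The values of urg2 were 303.8 and 296.8 against 231.6 and 210.0, a log2 change of -0.43 (SE 0.26). Those of urg3 were 230.2 and 225.7 against 172.4 and 121.0, a log2 change of -0.63 (SE 0.25). Only urg1 kept a difference of over 2-fold on this scale, and urg3 was no longer called. On this scale 0.843% of the features were called lower and 4.45% higher. Measured against the median of all features, the differences were close on both scales, at -2.10 and -2.07 for urg1, -0.49 and -0.46 for urg2 and -0.69 and -0.66 for urg3. The order by rank was also close, as urg3 stood at 152 and 156 and urg2 at 459 and 488 from the lowest. Both scales hold the same reads, multiplied by 1 factor per library. Values set against the median, and ranks, were therefore bound to be close and add no separate support.

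**Figure D1:**
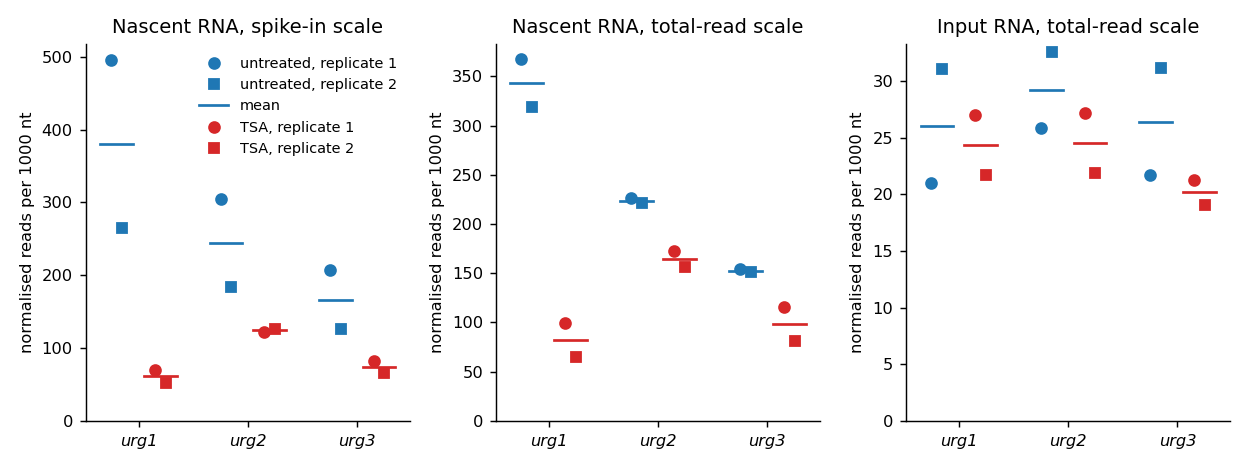
Normalised reads per 1000 nt of urg1, urg2 and urg3 in each library, for nascent RNA on the spike-in scale (left), nascent RNA on the total-read scale (middle) and input RNA (right). Points are single libraries, circles replicate 1 and squares replicate 2, lines the mean of 2, and each axis starts at 0 with its own range. The untreated values (blue) of nascent urg1 lie at 265 to 495 on the spike-in scale and the TSA values (red) at 52.4 to 70.3, while the input values of both groups overlap.

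Per length, urg1 was the highest of the 3 genes in untreated cells and not in TSA cells, while urg2 was above urg3 in both. On the total-read scale, the untreated nascent level was 368 and 319 normalised reads per 1000 nt for urg1, 226 and 221 for urg2 and 154 and 151 for urg3. Over whole genes, as the tables place them, the replicates of these 3 genes did not overlap. In the same libraries on the spike-in scale, the order within each replicate was bound to be the same, since scaling multiplies all reads of a library alike. It therefore adds no separate support. The ranges of neighbours overlapped on the spike-in scale. In coding parts alone, on the total-read scale, urg1 had 419 and 317.6 per 1000 nt and urg2 316.4 and 302.9. The ranges of urg1 and urg2 thus nearly met, while urg3 was lower at 144.2 in both libraries. In TSA cells urg2 was the highest with 172 and 156 per 1000 nt, above urg3 with 115 and 80.9 and urg1 with 99.3 and 64.8. The ranges of urg3 and urg1 overlapped there, though urg3 was the higher in both libraries. Ranked among the 5129 protein-coding genes by nascent level per length, urg1 moved from 733 and 1084 from the top in untreated libraries to 3123 and 3948 in TSA libraries. The gene urg2 stood at 1273 and 1635 and then at 1866 and 1963, and urg3 at 1901 and 2374 and then at 2751 and 3495.

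The input RNA was tested on its own, since the choice of the genes did not use it, although it came from the same cultures. No member passed the test. The gene urg1 had 37.6 and 55.6 normalised reads in untreated and 48.3 and 38.9 in TSA inputs. The groups overlapped, with both TSA values inside the untreated range. The log2 change was -0.08 (95% interval -0.55 to 0.40, limma adjusted p = 0.86), which leaves room for a level between 0.683 and 1.32 times that of untreated cells. A p that misses the threshold does not show that the level was unchanged. For urg2 the values were 34.7 and 43.8 against 36.5 and 29.4, with overlapping groups and a log2 change of -0.24 (interval -0.72 to 0.23, limma adjusted p = 0.52). For urg3 they were 32.5 and 46.5 against 31.8 and 28.5. These groups did not overlap, although the untreated replicates lay farther apart than the gap between the groups, and the log2 change was -0.36 (interval -0.85 to 0.14, limma adjusted p = 0.33). Across all 7245 features tested, 1.56% were called lower and 4.53% higher. None of the 3 genes (0 of 3) was called, none had an unadjusted p under 0.05, and neither edgeR nor DESeq2 called any of them.

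The second untreated input held more of all 3 genes than the first, and leaving it out turned the urg1 change to 0.20 on the log2 scale. Leaving out the second TSA input turned it to 0.08, so the input of urg1 has no settled direction. These inputs were thinly covered. The counts were 45 to 82 reads for urg1, 34 to 62 for urg2 and 33 to 54 for urg3, and the lowest, 33 reads, has an exact 95% Poisson interval of 22.7 to 46.3 reads, which covers counting error only. Per 1000 nt, the input levels were 21.0 to 31.1 for urg1, 21.9 to 32.6 for urg2 and 19.1 to 31.1 for urg3. Their ranges overlapped throughout, so the input gave the 3 genes no order. In the input of each library the 3 genes were near the middle of the protein-coding genes, above 50.5% to 67.4% of them.

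Set beside the input of the same culture, nascent urg1 was at the high end of the coding genes in untreated cells and toward the low end in TSA cells. The log2 ratio of nascent to input RNA (both on the total-read scale) was 4.10 and 3.35 for urg1 in untreated cultures and 1.90 and 1.61 in TSA cultures. On average that is a 13.2-fold ratio in untreated cells and a 3.38-fold ratio in TSA cells. The urg1 ratio was above that of 90.0% of 4961 protein-coding genes in untreated cells and above 10.6% in TSA cells. For urg2 the log2 ratios were 3.11 and 2.75 in untreated and 2.66 and 2.83 in TSA cultures, so that the groups overlapped. It was above 67.7% and 59.1% of the coding genes. The ratios of urg3 were 2.81 and 2.28 against 2.44 and 2.10, also overlapping, and stood above 48.9% and 31.3% of the coding genes. The median of coding genes was 2.56 in untreated and 2.59 in TSA cells. The change of the ratio was -1.97 (SE 0.34) for urg1, the sixth lowest of 4961 coding genes, -0.19 (SE 0.28) for urg2 and -0.28 (SE 0.30) for urg3. In the fit over all features the ratio change of urg1 was not called. It shares the IP libraries that chose urg1, so nothing is read from that. The size of the ratio depends on scaling. With IP and input scaled to their protein-coding sums, the untreated log2 ratios were 2.69, 1.90 and 1.51. Scaling whole libraries shifts all 3 genes alike, so their order was bound to stay. The scatter of nascent against input change shows urg1 below the cloud, near 0 on the input axis, while urg2 and urg3 lie inside it.

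**Figure D2:**
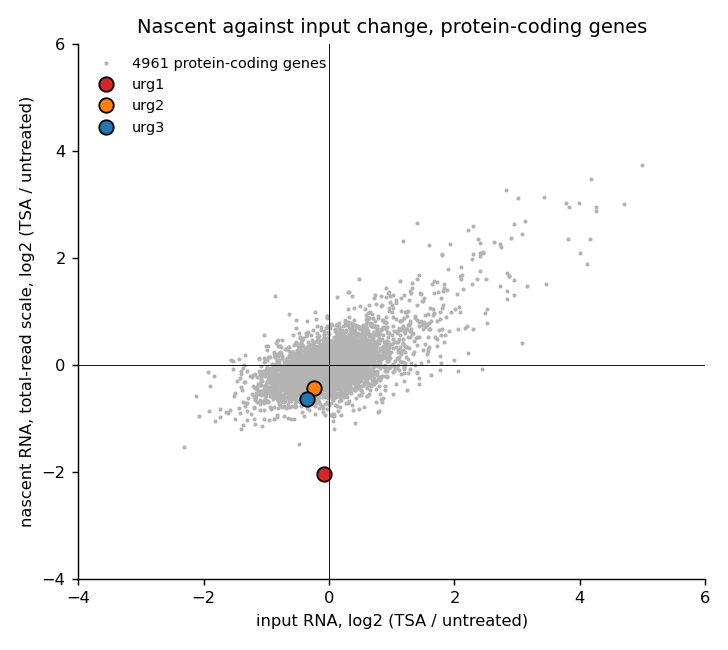
The log2 change by TSA in nascent RNA (vertical, total-read scale) against that in input RNA (horizontal) for 4961 protein-coding genes tested in both (grey), each point 1 gene. The gene urg1 lies at -2.04 nascent and -0.08 input, urg2 at -0.43 and -0.24, and urg3 at -0.63 and -0.36.

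The difference on urg1 was at least as large in the coding part as in the whole gene. Counting coding parts alone, the nascent log2 change on the spike-in scale was -2.70 (SE 0.34) for urg1, -0.88 (SE 0.35) for urg2 and -1.21 (SE 0.35) for urg3. The input changes of the coding parts were -0.05, -0.13 and -0.43, and those of the nascent to input ratio were -2.18, -0.28 and -0.32. In urg1 the coding part is 73.7% of the length. It held 84.0% (95% exact binomial interval 81.4 to 86.3) and 73.4% (70.3 to 76.3) of the nascent urg1 reads in the untreated libraries. In the TSA libraries it held 64.9% (58.3 to 71.1) and 71.6% (62.4 to 79.5). Both TSA shares were below both untreated shares, but the untreated replicates differed from each other by more than their counting intervals. On the total-read scale, the nascent density of urg1 was lower outside the coding part too, with 224 and 323 normalised reads per 1000 nt in untreated cells and 132 and 70.1 in TSA cells. The density within the coding part was 419 and 318 against 87.4 and 62.9. For urg2, whose coding part is 45.8% of its length, the coding share of nascent reads was 64.1% and 62.7% in untreated and 57.9% and 71.4% in TSA cells, with the untreated values between the TSA values. For urg3, with 80.3% of its length coding, it was 75.2% and 76.7% against 70.6% and 68.6%, the TSA values being lower in both. The counting intervals of urg3 overlapped. They were 70.0 to 79.9 and 71.8 to 81.1 in untreated and 64.1 to 76.5 and 59.5 to 76.7 in TSA cells. The input shares were 80.5% to 91.1% for urg1, 58.1% to 73.5% for urg2 and 81.8% to 94.1% for urg3, and the groups overlapped in each.

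**Figure D3:**
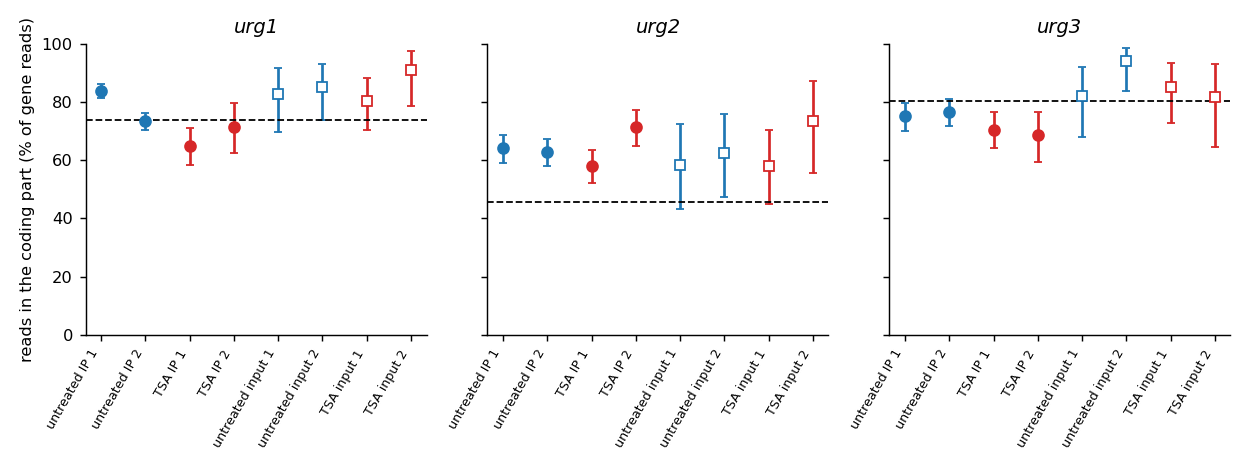
Share of the reads of each gene that lie in its coding part, in % of the reads of the gene, for the 8 libraries. Filled circles are IP and open squares input libraries, blue untreated and red TSA, bars the 95% exact binomial interval, and the dashed line is the share of the gene's length that is coding. In urg1 the IP share runs from 84.0% down to 64.9%, and in urg2 every share lies above the dashed line at 45.8%.

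The genes around the cluster did not share the size of the urg1 difference, and went in both directions. The 11 features within 5000 nt of the cluster were the 3 urg genes and 8 others. Upstream, SPAC1002.16c (tna1, a nicotinic acid transporter next to urg2) was higher in TSA cells, with nascent spike-in values of 40.0 and 36.7 in untreated and 64.6 and 67.1 in TSA cells. Its rise passed the test on the total-read scale (log2 change 1.13, limma adjusted p = 0.00035), not on the spike-in scale (0.70, limma adjusted p = 0.13). Downstream, toe1 lies next to urg1 on the same strand and had 165 and 117.6 against 71.8 and 110.7 normalised reads on the spike-in scale (log2 change -0.61, limma adjusted p = 0.16). Beyond toe1, SPAC1399.04c (uck2, annotated as a uracil phosphoribosyltransferase) fell, from 111 and 72.2 to 24.3 and 35.6 on the spike-in scale (log2 change -1.43, limma adjusted p = 0.0012). Its fall also passed on the total-read scale (2.01-fold lower, limma adjusted p = 0.0021). The input of uck2 was also lower (12.3 and 10.03 against 6.48 and 3.46, log2 change -1.04, limma adjusted p = 0.097), and its change of the nascent to input ratio was 0.04. At the far end, fur4, the uracil permease of the plasma membrane, had nascent log2 changes of -0.64 with the spike-in (limma adjusted p = 0.12) and -0.17 with total reads (limma adjusted p = 0.78) and an input change of -0.23 (limma adjusted p = 0.44). The other 4 features, med6, itt1, the antisense RNA of toe1 and an unannotated transcription unit, had nascent changes of -0.74 to -0.25 on the spike-in scale, and none of them passed. The plot along the locus places the urg1 difference between toe1 and urg3, which both lay nearer to 0.

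**Figure D4:**
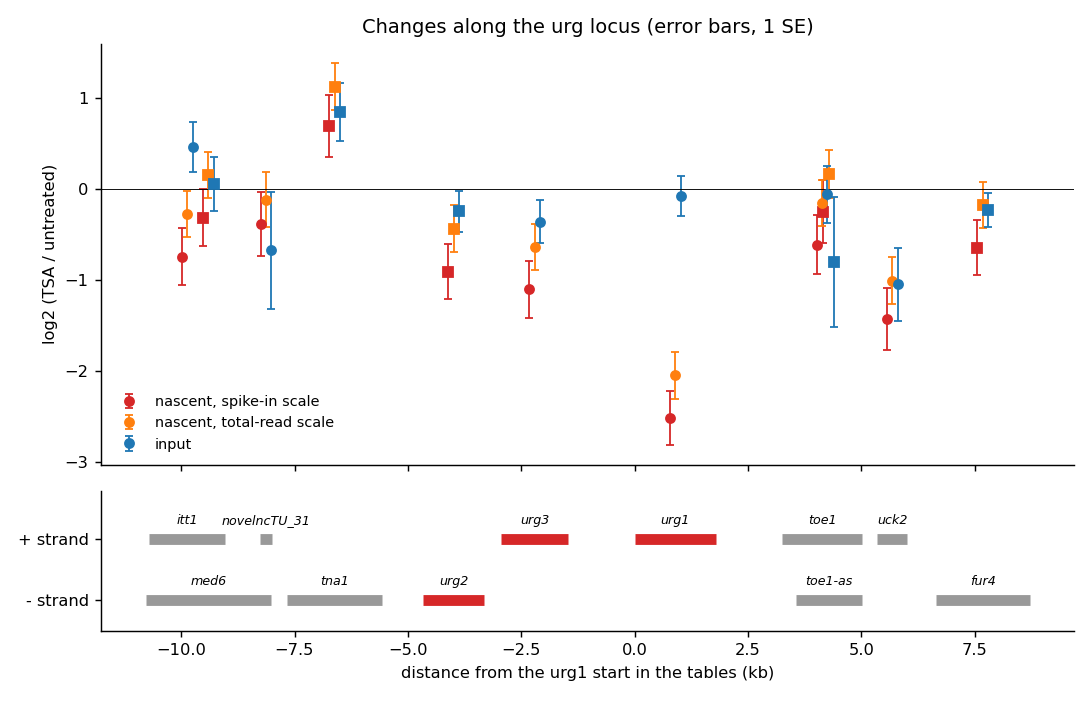
The log2 change by TSA of the 11 features within 5000 nt of the urg cluster, against the distance of their centre from the urg1 start (kb), with the genes drawn to scale below (urg genes red). Points are estimates for nascent RNA on both scales and for input, circles for the plus and squares for the minus strand, bars 1 SE, shifted sideways by 0.12 kb to keep them apart. The lowest points are those of nascent urg1 at -2.51 and -2.04, and tna1 is the feature with nascent values above 0.5.

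Most genes of the wider pyrimidine pathway passed no test. A list of 14 genes of pyrimidine synthesis, salvage and uptake had a median nascent log2 change of -0.28 with the spike-in and 0.19 with total reads, beside -0.42 and 0.03 over all features. Its median input change was -0.09, beside -0.00 over all features. On the spike-in scale 1 of 14 (7.14%) fell, urk1 (uridine kinase, 317 and 233 against 131.4 and 134.2 normalised reads, limma adjusted p = 0.015), near the background of 6.31%, and urk1 was not called on the total-read scale (-0.53, limma adjusted p = 0.20). The list does not hold uck2, whose nascent fall passed on both scales as given above and which is annotated like its member SPAC1B3.01c. The 1 member (7.14%, beside 4.45% of all features) that rose on the total-read scale was urh1 (uridine ribohydrolase), which splits uridine into uracil and ribose. Its nascent spike-in values were 597 and 477 in untreated and 735.8 and 1216 in TSA cells, a log2 change of 0.82 there (limma adjusted p = 0.038, under 2-fold) and of 1.30 on the total-read scale (limma adjusted p = 0.0001). The input of urh1, the 1 input rise of the list (7.14%, beside 4.53% of all features), rose too, from 11.6 and 12.8 to 24.7 and 26.8 normalised reads (log2 change 1.01, limma adjusted p = 0.024). The 1 input fall of the list (7.14%, beside 1.56% of all features) was that of dcd1 (deoxycytidylate deaminase), from 54.2 and 61.1 to 26.5 and 26.8 (log2 change -1.08, limma adjusted p = 0.0026), while its nascent change was -0.12 on the total-read scale (limma adjusted p = 0.87) and -0.59 on the spike-in scale (limma adjusted p = 0.14). The input of SPAC1B3.01c, annotated as a uracil phosphoribosyltransferase as urg2 is, was higher in TSA cells at 135.5 and 133.1 than in untreated cells at 70.1 and 82.1. Its input change, 0.81, had an adjusted p (limma) of 0.0029 but was under 2-fold, and its nascent change was 0.58 on the total-read scale (limma adjusted p = 0.16) and 0.11 on the spike-in scale (limma adjusted p = 0.81). For ura4, the orotidine phosphate decarboxylase of the synthesis pathway, nascent spike-in values were 240.0 and 240.7 in untreated and 246.8 and 215.0 in TSA cells.

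**Figure D5:**
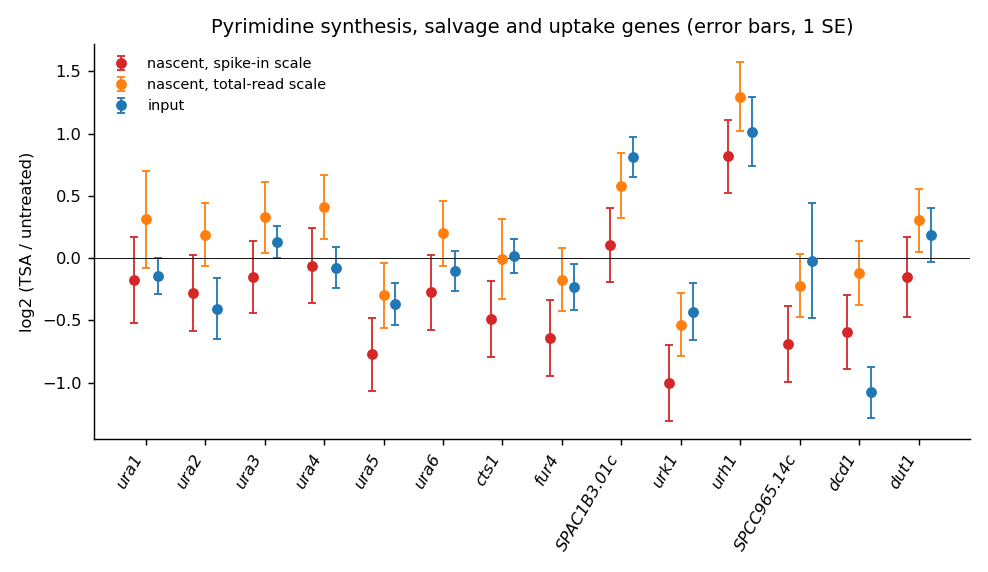
The log2 change by TSA of 14 genes of pyrimidine synthesis, salvage and uptake, for nascent RNA on the spike-in scale (red), nascent RNA on the total-read scale (orange) and input RNA (blue), points with bars of 1 SE. The lowest nascent value is that of urk1 and the highest, 1.30, that of urh1, and none of the 14 comes near the -2.51 of urg1.

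Likeness of pattern was measured as the distance between log2 values centred within the 4 IP (total-read scale) and within the 4 input libraries, over 4960 other protein-coding genes. It uses the IP values that chose urg1 for its low nascent level in TSA cells, so the distances are a description and are not compared between members. The nearest gene to urg1 was SPCC622.15c (uncharacterized protein) at a distance of 1.05, followed by SPBP22H7.03 (actinomyosin ring linker protein Sbg1), rps2302 (a ribosomal protein of the small subunit), SPCC13B11.02c (uncharacterized protein) and SPBC26H8.13c (Siva family protein). Their nascent log2 changes on the total-read scale were -1.48 to -0.92 and their input changes -0.48 to 0.08. The nearest to urg2 were oca2 (a protein kinase) at 0.161 and then rlp24, scp1, cdt2 and elp3 up to 0.229. Those of urg3 were rpl3702 at 0.244, then cbp1, rpl502, rps601 and rps602 up to 0.300, of which 4 encode ribosomal proteins. Paralogues such as rps601 and rps602 are near-identical, so their counts of uniquely mapped reads are uncertain. Among the urg genes themselves, urg2 was the 17th nearest gene to urg3 and urg3 the 141st nearest to urg2. Seen from urg1, urg3 was the 21st and urg2 the 142nd nearest gene, but both at distances over 1.4, and from urg2 and urg3 the place of urg1 was 4631 and 4189 of 4960.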

How the data were processed

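NET-seq libraries of 50 nt single-end reads were analysed from 2 deposited tables of 19343 features each, 1 scaled to S. cerevisiae ribosomal protein genes (4 IP libraries) and 1 to all uniquely mapped reads (8 libraries). Per the methods, cutadapt trimmed adapters and Bowtie mapped reads with at most 1 mismatch, of which the authors used the unique ones. The deposited values are read counts per feature for the library whose factor is 1, and for the others a signal, in which the authors multiplied the reads of each library by 1 factor. Dividing by the factor gave whole reads (within 0.001) for 100% of the values. The counting annotation is not given in the sources used here, nor is the use of strand, which the values of med6 and itt1 show. The methods name the ASM294v2 genome. The sequences come from ASM294v3, in which 99.9% of the coding parts of chromosome I, as the tables place them, begin with a start codon. Identifiers of 5111 of 5129 coding genes matched RefSeq.

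After setting aside 10204 entries of coding parts and 28 repeated pseudogene transcripts, 9111 features were kept. Log2(value + pseudocount) was fitted with limma 3.58.1 (trend) in R 4.3.3, with the 10th percentile of non-zero values as the pseudocount (6 for nascent spike-in, 6.58 for nascent total-read, 1.18 for input), keeping features whose mean exceeded it. Fold changes are on that scale, which understates those of low genes. A call needed an adjusted p (Benjamini-Hochberg, over all features) under 0.05 and at least a 2-fold change. On the nascent scales the fit took each spread from the trend, with no weight on the spread of the gene itself. The nascent to input ratio paired same-numbered IP and input libraries, which share a title prefix. No replicate block was used between untreated and TSA cultures, as no label pairs them. edgeR 4.0.16 and DESeq2 1.42.0 were run on the recovered reads as alternatives; other scalings, pseudocounts, filters, coding parts alone and leaving out each library were also tried. With 2 libraries a group, an exact permutation test cannot go below p = 0.333 (two-sided) and was not used.

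The genes, the pyrimidine list, the motifs and the locus window of 5000 nt were chosen with earlier results of these data known. The named genes are the members, all features in the locus window, the called genes of the list with ura4, fur4 and SPAC1B3.01c, and the 5 genes nearest to each member.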

Additional observations from a re-analysis of the deposited data

How the results depend on the processing

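Depth limited the input most, where the members had 33 to 82 reads, and 2 libraries a group limit every comparison. The nascent log2 change of urg1 kept its direction under all alternatives run, between -2.96 and -2.07 when each IP library was left out in turn. These fits use the IP reads that chose urg1, so the kept direction adds no separate support. Without untreated IP replicate 1, the values were -2.07 for urg1, -0.55 for urg2 and -0.75 for urg3. The urg2 and urg3 values moved with the scaling, with nascent changes of -0.43 and -0.63 after total-read scaling and -0.47 and -0.67 after median-ratio scaling. The change of the nascent to input ratio with the spike-in scaled IP was -2.44 for urg1, -0.66 for urg2 and -0.74 for urg3. With IP and input scaled to protein-coding sums the untreated log2 ratios were 2.69, 1.90 and 1.51. The input change of urg1 ran from -0.35 to 0.20 over the fits without each library and was 0.20 without untreated input replicate 2 and 0.08 without TSA input replicate 2. No member passed the adjusted p in the input under any of 14 alternatives, where it ran from 0.098 to 0.98.

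Counts of calls over all features depended on the processing, and the cause was not tested. Nascent rises (169) were 359 with total-read scaling, 316 with median-ratio scaling, 61 with a pseudocount 4 times as large, 93 by DESeq2, and 33 to 218 without each library. Nascent falls (508) were 68, 58 and 257 under the first 3 of these, and 3 to 1369 without each library, the highest being without untreated IP replicate 2 and the lowest without TSA IP replicate 1. Input rises (328) were 106 by DESeq2 and 205 to 337 without each library. Input falls (113) were 62 with the larger pseudocount, 30 by DESeq2 and 70 to 159 without each library. With the replicate number as a replicate block, nascent calls were 74 rises and 167 falls and input calls 373 rises and 136 falls, and no call of a member in the input changed. Same-numbered IP libraries deviated in opposite directions (r = -0.205 on the spike-in scale), so a crossed pairing was added after seeing the data, with 169 rises and 508 falls in nascent RNA and 252 rises and 94 falls in the input.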
